A study of Homo sapiens with 24 samples.

Results

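Input RNA taken 72 h after transfection was compared between H2052 cells that received a miR-497-5p mimic and H2052 cells that received a scrambled mimic. The libraries were chosen by their labels: 3 with the control mimic and 3 labelled miR-497-5p-RE, 6 of the 24 libraries of the series, and every gene with enough counts was kept, 17335 of 57500 gene identifiers. H2052 is an established human pleural mesothelioma line, so both groups are 1 line. Both mimics carried biotin at the 3′ end and were given at 20 nM with Lipofectamine RNAiMAX, a lipid carrier; the labels do not say what the suffix RE stands for. Input is the polyadenylated RNA of the transfected cells without streptavidin capture, here sequenced in pairs on an Illumina HiSeq. The other 18 libraries are the pull-downs of both times, not used here, and the 6 input libraries of 12 h, which entered the same fit and serve below to date each change. The question for these libraries was the state of the cells late after transfection.

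A microRNA guides the Argonaute complex to messenger RNAs, usually through pairing of its seed, bases 2 to 8, with a site in the 3′ UTR, and paired transcripts are translated less and decay faster. miR-497-5p belongs to the miR-15/16 family, whose members share a seed and are known for limiting G1 cyclins, their kinases and WEE1. Cells that leave the cycle lower E2F targets, which serve DNA replication, and the DREAM and FOXM1 targets, which serve mitosis.

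Mature human microRNAs of RefSeq (GRCh38.p14) that share the seed are shown because any transcript paired to the seed of 1 of them can pair to all. The seed is in capitals. miR-6838-5p has the same seed and is not shown. The mature miR-497-5p sequence of MIR497 lies on the minus strand at chr17:7017979-7017999, near the mature miR-195-5p of MIR195 at chr17:7017667-7017687.

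miR-497-5p: cAGCAGCAcacugugguuugu

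miR-195-5p: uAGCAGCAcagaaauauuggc

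miR-16-5p: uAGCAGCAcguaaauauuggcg

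miR-15a-5p: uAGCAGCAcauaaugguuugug

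miR-15b-5p: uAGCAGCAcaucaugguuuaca

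miR-424-5p: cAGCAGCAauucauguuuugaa

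Outside the seed they differ in sequence, and miR-424-5p and miR-497-5p begin with C where the others shown begin with U. The mimics themselves were not measured by these polyadenylated RNA libraries.

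The 3 control libraries of 72 h held 25535580 to 27595617 counts and the 3 miR-497-5p libraries 21561816 to 23597532. Replicates of a group correlated at 0.996 or above, and differed by more than sampling noise, since the chi-square of their counts over its degrees of freedom was 1.77 to 2.76. The mitochondrial share of counts was 5.75 to 6.01% in control and 8.51 to 8.85% with miR-497-5p. Of 15 mesothelial markers 13 were tested and none was at 0 in all 6 libraries. Their summed level was 2630.0 to 2690.0 CPM (counts scaled to library size) in control and 3050.0 to 3180.0 CPM with miR-497-5p. Of them 5 rose, with KRT8, KRT18 and KRT19 making up most of the sum, and 6 fell, among them KRT7, PDPN and GATA4. MSLN, mesothelin, was at 52.4 to 57.9 against 49.1 to 50.6 CPM, WT1 at 10.6 to 12 against 10.1 to 11.2 CPM and CALB2, calretinin, at 1.05 to 1.54 against 0.715 to 1.64 CPM. Summed fibroblast markers were at 496 to 505 against 387 to 410.0 CPM, most of it THY1; of the 10 markers 3 rose (FAP, PDGFRA and LUM, the last at 0.409 CPM or less) and 2 fell (THY1 and COL1A1). GATA4, KRT7 and COL1A1 did not keep these calls in the fit with a GC content offset described below. The log2 fold change of THY1 was -0.405, and -0.094 in that fit. Endothelial markers were at 16.8 to 18.1 against 16 to 17.6 CPM. Immune markers summed to 2.61 to 3.62 against 6.41 to 7.2 CPM, most of it CD68, a lysosomal protein, at 2 to 2.34 against 5.39 to 6.59 CPM; 4 of the 12 were at 0 in all 6 and PTPRC, CD45, reached at most 0.125 CPM. Summed squamous epithelial markers were at 192 to 202 against 224 to 240.0 CPM at 72 h, with 11 of 31 at 0. Most of this was KRT10, at 154 to 163 against 179 to 192 CPM, which was not called. The sum ranged from 166 to 1230.0 CPM over the 12 h libraries, and the part of these markers in any 12 h value below was not tested.

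At 72 h, 9963 of 17335 genes passed an adjusted p of 0.05 in edgeR's quasi-likelihood test, which is 57.5% of those tested. 4835 were higher with miR-497-5p (27.9%) and 5128 lower (29.6%). A change of at least 2-fold was reached by 787 higher genes (4.54%) and 825 lower genes (4.76%), and the values of the 2 arms did not overlap for 63.7% of genes. With library totals in place of TMM scaling the split was 3808 higher and 6137 lower, and the median of all genes moved from 0.00 to -0.10 on the log2 scale. At 12 h 12.5% of the same genes had passed (7.25% higher and 5.3% lower), and 8248 genes passed only at 72 h. The called share was larger among better expressed genes. In a fit limited to averages of 5 CPM or more, 4098 of 10404 were higher and 4022 lower. A share of a gene list near 57.5%, or near the larger share of such genes, is therefore no result about that list. Each list below is given by its counts and its median log2 fold change. Unless a change over time is named, rose and fell mean higher and lower than control at 72 h. In bulk RNA, fewer cells of a state and less RNA per cell cannot be told apart.

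The direction of change followed the base composition of the transcripts. Among 12198 protein-coding genes averaging 1 CPM or more, the decile with the lowest GC content (29.2 to 38.1%) had 58.4% of genes higher and 13.9% lower, while the decile with the highest (61.5 to 76%) had 8.69% higher and 66.9% lower. The median log2 fold change fell from 0.30 to -0.46 between these deciles. Spearman's rho of GC content with the log2 fold change was -0.48 at 72 h and 0.193 at 12 h across genes, which are not independent and share the libraries. Control and miR-497-5p libraries of 72 h both stood away from the mean of the 12 libraries, with rho of 0.327 to 0.373 for the controls and -0.164 to -0.238 for miR-497-5p. The part of base composition in the changes below was not tested; a second fit with a GC content offset, chosen after these values were seen, called 4824 genes higher and 4492 lower of 17185 tested and kept 74.5% of the higher and 70.3% of the lower calls. Its counts are given beside a list where they differ by over 1.5 times or turn the balance, and its values beside a gene where they differ as much.

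**Figure D1:**
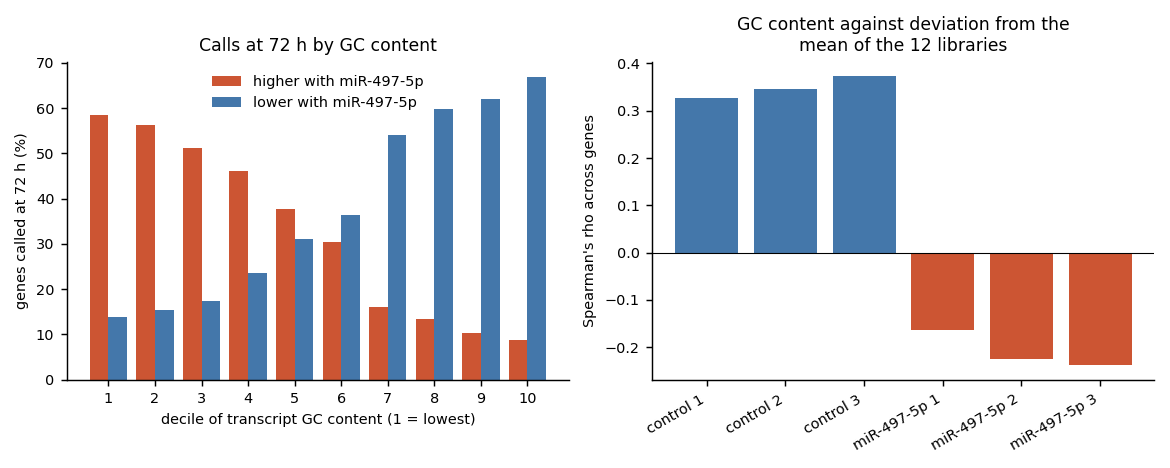
Left: percent of protein-coding genes called higher or lower at 72 h in each decile of transcript GC content, from 8.69 to 58.4% higher and 13.9 to 66.9% lower. Right: Spearman's rho across genes between GC content and each 72 h library's deviation from the mean of the 12 input libraries; the 3 controls are above 0 and the 3 miR-497-5p libraries below it.

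The largest falls belonged to several systems. CYP26B1, which clears retinoic acid, was at 13.4, 13.8 and 13.4 CPM in control and 1.84, 1.9 and 2.46 CPM with miR-497-5p, a log2 fold change of -2.70 ± 0.14 (SE), adjusted p 2.7e-21. TUBA1B, an alpha-tubulin with near-identical paralogs, was at 251, 257 and 255 against 53.2, 51.4 and 53.7 CPM (log2 fold change -2.27, adjusted p 6.3e-30). ILK, the integrin-linked kinase of focal adhesions, was at 12, 11.8 and 11.7 against 2.86, 2.8 and 3.19 CPM (log2 fold change -2, adjusted p 2.4e-22). In all 3 the highest miR-497-5p library was below the lowest control library. The 15 largest changes each way were drawn only from genes whose arms did not overlap, so this separation is no further result. PIMREG, RAVER1 and MPP2 were among the 15 largest falls as well, with log2 fold changes of -2.26, -2.01 and -1.98.

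Among the largest rises, KRTAP1-5, a hair keratin-associated protein gene, was at 4.56, 4.23 and 4.7 CPM in control and 32.1, 31.3 and 30.1 CPM with miR-497-5p (log2 fold change 2.79 ± 0.11 (SE), adjusted p 4.2e-26). ABI3BP, a matrix-binding protein gene, was at 12.2, 12.4 and 11.9 against 45.3, 49.1 and 49.1 CPM (log2 fold change 1.98, adjusted p 2.2e-28). VNN1, a pantetheinase, was at 5.08, 6.53 and 6.41 against 22.7, 24.8 and 22.9 CPM (log2 fold change 1.96, adjusted p 6.3e-20). GBP1, an interferon-inducible guanylate-binding protein, was at 3.02, 2.69 and 3.29 against 10.5, 11.5 and 11.2 CPM (log2 fold change 1.89, adjusted p 1.7e-14). The arms of these 4 genes did not overlap, which their choice among the largest changes required. MGAM, YPEL2 and DOK5 rose by 2.09, 1.91 and 1.79. PDK1-AS1 rose by 1.96, and no source used here gives the strand setting of the counting, so its reads cannot be told from those of the overlapping gene PDK1, which rose by 0.58 (0.32 with the GC offset). By class, 22.7% of 2098 long noncoding RNA genes were higher and 9.34% lower, against 29.5% and 34% of 14001 protein-coding genes.

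Genes with a 3′ UTR site for the seed were lower in shares that differed by site class at 72 h. Of 722 genes with an 8mer site 30.2% were lower and the median log2 fold change was 0.02, and of 7328 genes with no site 31.8% were lower with a median of 0.00. Of 2932 genes with a 7mer paired to bases 2 to 8 (7mer-m8) 37.4% were lower, of 537 with a 7mer of bases 2 to 7 and an A (7mer-A1) 34.8%, and of 2428 with a 6mer 38.1%. At 12 h 21.7% of the 8mer genes and 2.36% of the genes with no site had been lower. With the GC offset at 72 h the shares lower were 35% for the 8mer, 34% for the 7mer-m8, 34.6% for the 7mer-A1 and 30.2% for the 6mer against 27.5% with no site, and the medians of the 8mer genes and of those with no site were -0.05 and 0.03. These are descriptions of site classes with no test.

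Sites are shown for 4 cell cycle, growth and signalling genes that behaved differently, with the bases paired to the seed, and the A after them in an 8mer, in capitals (GRCh38, 3′ UTR exon, each printed 5′ to 3′ on the gene's strand). The CCNE1 sites lie at chr19:29824024-29824031 and chr19:29824262-29824269, that of CARD10 on the minus strand at chr22:37490947-37490953, that of CCND1 at chr11:69653315-69653322 and that of VEGFA at chr6:43784838-43784845.

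CCNE1 first site: gcgtgctcccgaTGCTGCTAtggaaggtgc

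CCNE1 second site: ctgttttgtaagTGCTGCTAtatctatcca

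CARD10 site: ctcccctctactTGCTGCTctgggcctccc

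CCND1 site: tttcacattgttTGCTGCTAttggaggatc

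VEGFA site: ttttatttttctTGCTGCTAaatcaccgag

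CCNE1, cyclin E1, has 8mer sites and was lower at both times: at 12 h 22.7, 22.5 and 22.2 CPM in control against 13.2, 13.1 and 14.8 CPM (log2 fold change -0.71), and at 72 h 20.0, 20.1 and 20.6 against 7.31, 8.25 and 8.59 CPM (a log2 difference of -1.33 ± 0.085 (SE), adjusted p 2.6e-18). CARD10, a scaffold that links receptors to NF-kB, has a 7mer site and was at 23.6, 24.6 and 26.8 against 6.34, 5.18 and 6.52 CPM (log2 fold change -2.05, adjusted p 3.8e-18), after -0.48 at 12 h. In both genes the log2 fold change at 72 h was below that at 12 h, with differences of -0.62 (adjusted p 9.1e-06) and -1.57 (adjusted p 4.9e-12). CCND1, cyclin D1, also with an 8mer, had been lower at 12 h (log2 fold change -0.32) and was at 434, 428 and 429 against 449.7, 440.4 and 430.0 CPM at 72 h, a log2 fold change of 0.03 with an adjusted p of 0.4 that did not pass. VEGFA, the vascular growth factor, was at 22.9, 22.4 and 25.5 against 19.1, 20.4 and 21.6 CPM (log2 fold change -0.21, adjusted p 0.013), and 0.065 (adjusted p 0.45) with the GC offset. Without control replicate 3 or miR-497-5p replicate 1 its adjusted p was 0.113 or 0.0975. Of the genes shown with an 8mer, CCNE1, with a first and a second site, was lower at 72 h and CCND1 was not called. The call of VEGFA depended on the fit and on single libraries. Only sites paired to bases 2 to 8 are shown, so the genes are not matched on their sites.

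Cell cycle genes formed the most one-sided groups. Of 15 cyclins, cyclin-dependent kinases and CKS subunits 12 fell and 1 rose (12 and 2 with the GC offset), with a median log2 fold change of -1.21; over all genes tested the median was 0.00. CKS2, which tethers substrates to CDK1, was at 250.1, 233 and 242 CPM in control and 85.8, 89.6 and 92.7 CPM with miR-497-5p (log2 fold change -1.44 ± 0.039 (SE), adjusted p 8.6e-32). CDK2, the kinase of cyclins E and A, was at 26.7, 30.4 and 28.6 against 10.4, 9.05 and 10.3 CPM (log2 fold change -1.52, adjusted p 1.3e-24). Of the 2 kinases that hold CDK1 inactive, WEE1 was at 18.7, 18.2 and 18.9 against 9.87, 11 and 8.21 CPM (log2 fold change -0.95) and PKMYT1 at 13.8, 16.1 and 13.5 against 3.27, 2.49 and 2.94 CPM (log2 fold change -2.31). Neither gene's arms overlapped, as for 63.7% of all genes tested.

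The inhibitors of these kinases did not move one way: 2 of 8 rose and 4 fell. CDKN1C, p57, was at 8.18, 9.37 and 9.16 against 20.2, 18.9 and 18.4 CPM (log2 fold change 1.11, adjusted p 1.4e-12), and CDKN2C, p18 and itself an E2F target, at 55.9, 59.8 and 55.1 against 20.5, 20.3 and 20.1 CPM (log2 fold change -1.49, adjusted p 3.8e-26). CDKN2A and CDKN2B had 0 counts in all 6 libraries of 72 h, which allows up to 0.145 to 0.159 CPM in the miR-497-5p libraries and 0.115 to 0.125 CPM in the controls, counting error only; at 12 h their group means were 0.61 and 0.49 CPM for CDKN2A and 0.95 and 0.67 CPM for CDKN2B. Of 21 E2F, pocket protein and MuvB regulators 11 fell and 6 rose. MYBL2, B-MYB, which joins MuvB to switch on mitotic genes, was at 347, 359 and 354 against 126, 125 and 123 CPM (log2 fold change -1.50, adjusted p 9.4e-33), and E2F1 changed by -0.97 (adjusted p 1.2e-20), and by -0.55 with the GC offset. RBBP4, a subunit of MuvB and of chromatin complexes, rose by 0.67 (0.45 with the offset).

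**Figure D2:**
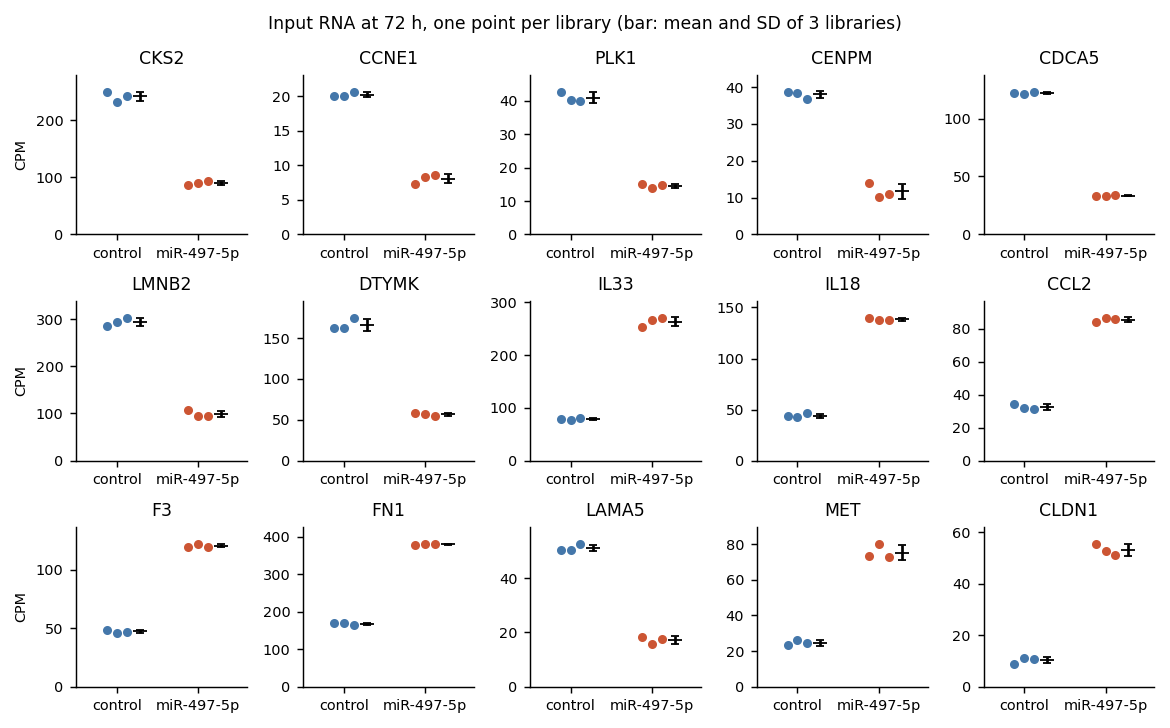
CPM of 15 genes in the 6 input libraries of 72 h, 1 point per library, with the mean and SD of each group of 3 beside them; each axis starts at 0. In every panel the points of the 2 groups do not overlap: the cell cycle genes, DTYMK and LAMA5 are lower and IL33, IL18, CCL2, F3, FN1, MET and CLDN1 higher with miR-497-5p. Of all genes tested, 63.7% had groups that did not overlap.

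Most replication genes on these lists were lower as well. Of 27 origin licensing and firing genes 21 fell and 2 rose, with a median of -0.70; with the GC offset 22 fell and 0 rose. ORC6, a subunit of the origin recognition complex, was at 42.1, 42 and 39.5 against 14.6, 16.1 and 17.3 CPM (log2 fold change -1.36, adjusted p 1.7e-22). GINS1, part of the replicative helicase, was at 51.2, 48.4 and 51.4 against 22, 19.8 and 22.4 CPM (-1.23, adjusted p 2.5e-23), and GMNN, geminin, which blocks a second licensing, changed by -1.13. Of 25 polymerase, clamp loader, histone chaperone and DNA methylation copying genes 18 fell and 2 rose (21 and 1 with the offset), led by ASF1B, a chaperone of histones H3 and H4, at 69.1, 66.2 and 66.5 against 16.3, 16.5 and 17.4 CPM (log2 fold change -2.01, adjusted p 2.6e-32). FEN1, which trims Okazaki fragments, and POLE, the leading-strand polymerase, changed by -1.34 and -1.18. Of 26 nucleotide synthesis genes 16 fell and 2 rose, and DTYMK, thymidylate kinase, was at 162, 163 and 175 against 58.7, 57 and 54.6 CPM (log2 fold change -1.55, adjusted p 2.6e-31). MCM6 of the helicase ring and RFC5 of the clamp loader were not called, with log2 fold changes of 0.06 and -0.04; with the GC offset RFC5 stood at -0.18 and passed the test (adjusted p 0.01).

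No gene of the 2 mitotic lists rose. Of 30 mitotic kinases, motors and cytokinesis genes 28 fell, with a median of -0.72, and of 39 kinetochore and spindle checkpoint genes 33 fell, with a median of -0.55. PLK1, the polo-like kinase of mitotic entry, was at 42.8, 40.1 and 39.8 CPM in control and 15.1, 13.8 and 14.7 CPM with miR-497-5p (log2 fold change -1.49 ± 0.056 (SE), adjusted p 8.2e-27). AURKB, the kinase that corrects spindle attachment, was at 62.1, 61.2 and 59.5 against 26.7, 24 and 26.7 CPM (-1.24, adjusted p 1.2e-24), and PTTG1, securin, at 151, 151 and 146 against 57.2, 59.2 and 57.1 CPM (-1.37, adjusted p 7.2e-31). CENPM, of the inner kinetochore, was at 38.7, 38.5 and 36.9 against 14, 10.2 and 10.9 CPM (log2 fold change -1.71, adjusted p 7e-24). KIF18B, a microtubule depolymerase, SPC25 of the NDC80 complex and CENPW changed by -1.61, -1.41 and -1.44. KIF20B, a motor of cytokinesis, and CENPE, a kinetochore motor, were not called (-0.08 and -0.07), but passed at -0.40 and -0.38 with the GC offset.

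Of 27 condensin, cohesin, lamin and HMGB genes 15 fell and 8 rose, and 20 fell and 3 rose with the GC offset. CDCA5, sororin, which protects cohesion, was at 122, 122 and 123 against 33.5, 33.3 and 33.6 CPM (log2 fold change -1.87, adjusted p 3.1e-34). LMNB2, lamin B2, was at 285, 293 and 303 against 106, 94.8 and 94.4 CPM (-1.58, adjusted p 6.8e-30) and HMGB2, a chromatin protein, changed by -1.05. STAG2, a subunit of the cohesin ring, went the other way, at 23.4, 23.4 and 24.8 against 52.4, 53.6 and 58.2 CPM (log2 fold change 1.20, adjusted p 5.6e-18). H2AX, the histone variant phosphorylated at DNA breaks, was at 418, 423 and 426 against 106, 103 and 101 CPM (-2.03, adjusted p 3.3e-20).

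Promoters of these genes were searched in RefSeq windows of 250 bases before to 50 after the start (GRCh38.p14), on both strands. The CHR element, TTTGAA, which DREAM and B-MYB complexes bind, stood in 20 of 26 promoters of the mitotic kinase and motor list (76.9%) and 14 of 31 of the kinetochore list (45.2%), against 9.79% of the 12189 tested genes with a promoter and 15.4% of all 27305. An E2F element, TTCCCGC or TTGGCGC, stood in 12 of 22 licensing promoters (54.5%) and 14 of 24 of the polymerase and chaperone list (58.3%), against 14% and 9.33%. Among 536 promoters of genes lower by at least 2-fold the shares were 12.3% for CHR and 16.4% for E2F. The elements of these lists were textbook knowledge when the lists were drawn up, so the shares describe the lists. The 120 bases from 110 before to 10 after the start are shown for 4 of these genes, to compare where the element stands; it is in capitals. CCNB2, cyclin B2, and UHRF1, a reader of hemimethylated DNA, were chosen for this after their values were seen.

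PLK1, chr16:23678779-23678898, plus strand, CHR: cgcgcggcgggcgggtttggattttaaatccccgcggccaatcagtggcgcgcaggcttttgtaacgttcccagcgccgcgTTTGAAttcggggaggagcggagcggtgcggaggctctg

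CCNB2, chr15:59105036-59105155, plus strand, CHR: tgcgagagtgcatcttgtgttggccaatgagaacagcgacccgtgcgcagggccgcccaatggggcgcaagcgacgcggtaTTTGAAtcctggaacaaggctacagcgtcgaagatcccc

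CKS1B, chr1:154974571-154974690, plus strand, CHR: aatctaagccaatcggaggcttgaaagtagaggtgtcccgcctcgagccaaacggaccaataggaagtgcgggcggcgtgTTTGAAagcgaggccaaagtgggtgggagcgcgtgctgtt

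UHRF1, chr19:4909391-4909510, plus strand, E2F: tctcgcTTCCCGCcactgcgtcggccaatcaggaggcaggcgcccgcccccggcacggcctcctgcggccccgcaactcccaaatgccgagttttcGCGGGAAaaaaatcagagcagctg

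The CHR began 29 bases before the start in PLK1 and CCNB2 and 30 in CKS1B. UHRF1 held E2F elements 104 and 14 bases before its start and no CHR in the window. At 72 h CCNB2 was at 36.2, 39.9 and 34.1 against 19.5, 20.0 and 19 CPM (log2 fold change -0.92, adjusted p 9e-18), CKS1B at 77.2, 75.9 and 77.7 against 15.8, 14.4 and 16.3 CPM (-2.31, adjusted p 2e-35) and UHRF1 at 30.9, 31.5 and 34.3 against 20.6, 16.7 and 19.3 CPM (-0.77, adjusted p 2.4e-12; -0.50 with the GC offset). A match of letters is a description and shows no binding.

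Most mitotic genes were also lower in the controls of 72 h than in those of 12 h, by the mean CPM of 27 of 30 mitotic kinases, motors and cytokinesis genes and 33 of 39 kinetochore and spindle checkpoint genes, counts with no test. CENPE and KIF20B went the other way, from 17.1 to 36.1 CPM and from 25.5 to 46.9 CPM. PLK1 was at 171, 178 and 174 CPM in the 12 h controls and 188, 171 and 179 CPM with miR-497-5p, so that control cells went from 175 to 40.9 CPM and miR-497-5p cells from 179.6 to 14.5 CPM on average. TUBA1B went from 1758 to 255 CPM in control and from 1889 to 52.8 CPM with miR-497-5p. ILK went from 74.3 to 11.8 CPM in control and from 79.5 to 2.95 CPM with miR-497-5p. The effect of miR-497-5p at 72 h minus that at 12 h was -1.53 ± 0.069 (SE) for PLK1 (adjusted p 3.5e-23) and -2.37 ± 0.054 (SE) for TUBA1B (adjusted p 1.4e-26). Culture time and the day of harvest cannot be told apart in the change of the controls.

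**Figure D3:**
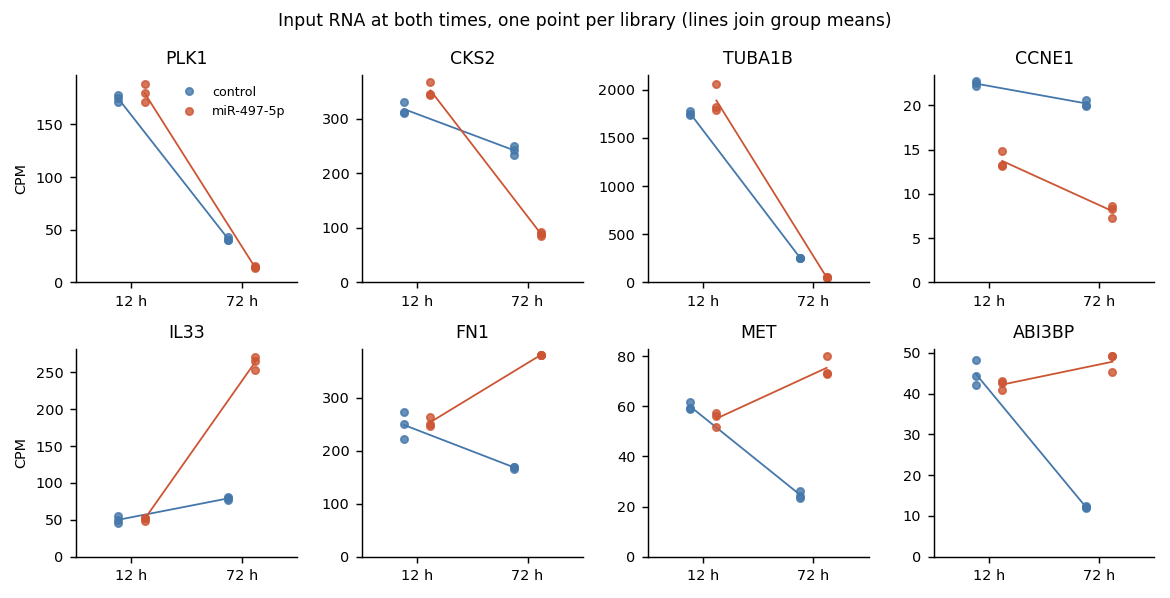
CPM of 8 genes in the 12 input libraries, 1 point per library at 12 and 72 h, with lines joining the group means. PLK1 and TUBA1B are low at 72 h in both arms and lowest with miR-497-5p, CCNE1 is below control at both times, and IL33, FN1, MET and ABI3BP are above control only in the 72 h points.

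Genes of secreted inflammatory proteins were higher more often than lower. Of 13 chemokines tested 8 were higher and 1 lower, with a median of 0.75, and of 23 interleukins and colony stimulating factors 11 were higher and 4 lower; 4 and 8 members were not called. With the GC offset 8 and 0 chemokines and 14 and 2 of the second list were higher and lower. CCL2, which recruits monocytes, was at 34.2, 32 and 31.2 CPM in control and 83.7, 86.5 and 85.7 CPM with miR-497-5p (log2 fold change 1.39 ± 0.062 (SE), adjusted p 4.8e-24). CXCL8, the neutrophil attractant interleukin-8, was at 28.8, 31 and 29.3 against 114, 110.2 and 109 CPM (1.90, adjusted p 4.9e-22). IL33, an alarmin held in the nucleus, was at 79.2, 77.3 and 81 against 254, 266 and 270.4 CPM (log2 fold change 1.73, adjusted p 2.4e-28), and IL18, a cytokine activated by inflammasomes, at 43.3, 42.6 and 46.3 against 139.8, 138 and 138 CPM (1.65, adjusted p 2.6e-31). TNFSF4, the ligand OX40L, was at 8.39, 8.99 and 8.45 against 18.6, 19.2 and 17.6 CPM (1.10, adjusted p 5.7e-13). Within a gene every miR-497-5p library was above every control, while 63.7% of all genes tested had arms that did not overlap. IL32 was not called, with a log2 fold change of 0.05; with the GC offset it passed at 0.41. PTPRC was at or below 0.125 CPM in each 72 h library.

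CXCL1, CXCL2 and CXCL3, neighbouring neutrophil chemokine genes with near-identical sequence, were at 27.1, 27.1 and 25.4, at 13.5, 12.9 and 13.2 and at 14.6, 15.6 and 13.9 CPM in control and at 53.1, 51.5 and 52.7, at 22.1, 24.7 and 20.1 and at 24.3, 21.1 and 18.9 CPM with miR-497-5p. Their log2 fold changes were 0.98 (adjusted p 3.7e-19), 0.75 (1.1e-10) and 0.54 (3.1e-07); the counting kept unique reads, so the split between them is uncertain. Their promoters are shown for the NF-kB consensus they share, searched on both strands and in capitals, where a pair of overlapping matches gives 1 run. It stood in 5 of 9 chemokine promoters (55.6%), in 13.2% of the promoters of all genes tested and in 10.8% of all 27305. CXCL1, CXCL2 and CXCL3 are among the 5 and alike in sequence, so their matches are not independent and the share describes the list.

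CXCL1, chr4:73869283-73869402, plus strand: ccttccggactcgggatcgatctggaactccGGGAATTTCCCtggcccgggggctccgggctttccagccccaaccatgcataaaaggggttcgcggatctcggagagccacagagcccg

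CXCL2, chr4:74099186-74099305, minus strand: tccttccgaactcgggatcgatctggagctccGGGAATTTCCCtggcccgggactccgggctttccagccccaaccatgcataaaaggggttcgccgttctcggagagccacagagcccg

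CXCL3, chr4:74038680-74038799, minus strand: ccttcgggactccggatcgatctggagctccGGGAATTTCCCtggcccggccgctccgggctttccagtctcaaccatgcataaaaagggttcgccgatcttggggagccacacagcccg

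The run began 79 bases before the start in CXCL1 and CXCL3 and 78 in CXCL2. An AP-1 element, TGANTCA, stood in 5 of 15 interleukin promoters (33.3%) and 6 of 14 of the plasminogen and serpin list (42.9%), and in 3 of 9 chemokine promoters (33.3%), but in 1 of 17 of the matrix protease list (5.88%) and 1 of 16 of the ERK list (6.25%). All genes tested held it in 5.03% and all 27305 promoters in 7.76%, and it stood in 6.59% of 455 promoters of genes higher by at least 2-fold. The NF-kB consensus stood in 12.3% of the same 455.

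Growth factors changed in both directions. Of 20 angiogenic and FGF ligands 7 rose and 7 fell (7 and 5 with the GC offset). ANGPT1, the ligand that stabilises vessels through TIE2, was at 14.9, 13.9 and 14.9 against 39.7, 44.9 and 43.1 CPM (log2 fold change 1.55, adjusted p 2.1e-24), and PDGFA, which drives mesenchymal growth, at 87, 85.6 and 92.6 against 41.4, 41.4 and 44 CPM (-1.06, adjusted p 5.4e-19). Of 16 WNT ligands and secreted inhibitors 6 rose and 5 fell (6 and 3 with the GC offset), with WNT7B at 23.4, 21.2 and 23 against 8.49, 7.72 and 8.4 CPM (-1.46, adjusted p 2.2e-17). Of 25 TGF-beta family ligands and antagonists 9 rose and 4 fell (10 and 2 with the GC offset): BMP2 changed by 0.78 and TGFB1 by -0.64, the latter by -0.19 with the offset. ESM1, endocan, a proteoglycan of the IGF and CCN list, was at 59.6, 59.2 and 59.6 against 188, 193 and 191 CPM (1.68, adjusted p 2.3e-33). IGF2, a growth factor for the IGF1 receptor, changed by 1.22 and IGFBP2 by -0.89 (-0.56 with the offset). Of 9 EGF family ligands 3 rose and 1 fell, and with the GC offset 1 and 1.

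The clotting and plasminogen genes included some of the larger rises. Of 19 plasminogen activators and serpins 8 rose and 6 fell. F3, tissue factor, which starts clotting, was at 48.9, 46.1 and 47.2 against 119.5, 122 and 120.0 CPM (log2 fold change 1.35 ± 0.046 (SE), adjusted p 2.5e-28). PLAT, tissue plasminogen activator, was at 248, 250.2 and 252 against 508, 494 and 499 CPM (1, adjusted p 2.6e-28). Of 36 translocon and vesicle coat genes 21 rose and 11 fell, and with the GC offset 15 and 14. SEC62, which feeds proteins into the endoplasmic reticulum, was at 109, 107 and 106 against 230.5, 231 and 229 CPM (1.10, adjusted p 7.4e-28), and COPA of the COPI coat changed by 0.87. SRPRB, a receptor subunit of the signal recognition particle, changed by -0.78.

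Of 25 matrix glycoproteins 14 rose and 4 fell, with a median of 0.49. FN1, fibronectin, was at 169, 169.5 and 165 CPM in control and 379, 380.2 and 381 CPM with miR-497-5p (log2 fold change 1.18 ± 0.049 (SE), adjusted p 1e-15). FBN1, fibrillin-1 of elastic microfibrils, was at 28.5, 29.7 and 28.6 against 59.8, 61 and 59.3 CPM (1.05, adjusted p 1.1e-19), and its partner MFAP5 at 14.2, 12.7 and 17 against 40.0, 39.5 and 38 CPM (1.42, adjusted p 9e-21). THBS2, thrombospondin-2, was at 39.6, 38.6 and 37 against 99.9, 103 and 102 CPM (1.40, adjusted p 2.5e-28). FBLN1, fibulin-1, went the other way, by -0.92 (-0.59 with the offset).

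Basement membrane genes were split, with 6 of 23 higher and 9 lower, and 9 higher and 6 lower with the GC offset. HSPG2, perlecan, was at 26, 25 and 26.8 against 6.8, 5.82 and 6.23 CPM (log2 fold change -2.04 ± 0.083 (SE), adjusted p 2.2e-25), LAMA5, the laminin alpha-5 chain, at 50.3, 50.4 and 52.6 against 18.4, 15.8 and 17.5 CPM (-1.57, adjusted p 4.6e-25), and AGRN, agrin, at 137, 138 and 139.8 against 59.3, 55.2 and 52.5 CPM (-1.31, adjusted p 5.5e-22). With the GC offset these 3 stood at -1.58, -1.09 and -0.82. LAMB1, the laminin beta-1 chain, rose by 0.75 and COL4A1, the alpha-1 chain of collagen IV, by 0.59. Of 20 interstitial collagens 3 rose and 7 fell, with a median of -0.44 that became -0.03 with the GC offset, where 4 rose and 2 fell. COL5A2, a chain of collagen V, was at 18.4, 18.4 and 17.3 against 41.7, 41.5 and 43.7 CPM (1.23, adjusted p 3.4e-21). COL6A1 and COL6A2, chains of collagen VI, changed by -0.65 and -0.54, and by -0.20 and -0.06 with the offset, the latter with an adjusted p of 0.12.

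Enzymes that shape collagen and hyaluronan rose in part. Of 20 collagen folding and crosslinking genes 7 rose and 7 fell, and 12 rose and 3 fell with the GC offset. PLOD2, which hydroxylates the ends of collagen for crosslinking, was at 201, 202 and 196 against 442, 471 and 459 CPM (log2 fold change 1.20, adjusted p 1.4e-25), and P4HA1, the prolyl hydroxylase chain, at 23.7, 25.8 and 24.4 against 51.8, 50.7 and 53.9 CPM (1.08, adjusted p 9.6e-20). Of 22 proteoglycan and hyaluronan genes 6 rose and 7 fell, and 9 rose and 6 fell with the GC offset. HAS2, the hyaluronan synthase, was at 64.4, 63.2 and 59.9 against 134, 146 and 144 CPM (1.18, adjusted p 1.3e-26), the hyaluronan receptor CD44 at 396, 394 and 391 against 795, 788 and 828 CPM (1.03, adjusted p 4.7e-30), and CEMIP2, a hyaluronidase, changed by 1.41. SDC1, syndecan-1, and GPC1, glypican-1, both heparan sulfate proteoglycans of the surface, changed by -1.10 and -1.06, and by -0.71 and -0.58 with the offset. Of 32 matrix proteases and inhibitors 10 rose and 13 fell, with 14 and 10 under the GC offset; TIMP3, a matrix-bound inhibitor, was at 458, 452 and 448 against 282, 278 and 281 CPM (-0.69, adjusted p 3.7e-24) and ADAM10, a sheddase, changed by 0.65 (0.36 with the offset).

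Integrins and the contractile cytoskeleton were split. Of 18 integrins 6 rose and 7 fell (5 and 4 with the GC offset). ITGAV, the alpha-V chain, was at 29.5, 28.9 and 28.1 against 46.1, 48.4 and 46.3 CPM (log2 fold change 0.70, adjusted p 1.5e-14; 0.38 with the offset), ITGB1, the beta-1 chain, at 195, 204 and 196 against 306, 318 and 325 CPM (0.67, adjusted p 2.1e-21; 0.40 with the offset), and ITGB5 changed by -0.57 (-0.30 with the offset). Of 25 contractile and filament genes 10 rose and 9 fell, and 15 rose and 5 fell with the GC offset. CALD1, caldesmon, was at 37.2, 36.8 and 35.2 against 99.9, 101 and 103 CPM (1.48, adjusted p 8.8e-29), TAGLN, transgelin, at 34.6, 32.2 and 34.8 against 72.6, 57.9 and 68.4 CPM (0.97, adjusted p 4e-12), and TAGLN2, its paralog, at 413, 409 and 403 against 226, 221 and 226 CPM (-0.87, adjusted p 1.9e-27; -0.56 with the offset). The summed fibroblast markers were lower with miR-497-5p, while FAP, PDGFRA and LUM among them were higher, as given above. Most of the sum was THY1, at -0.405, and at -0.094 with the offset. The part of these markers in the changes was not tested.

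**Figure D4:**
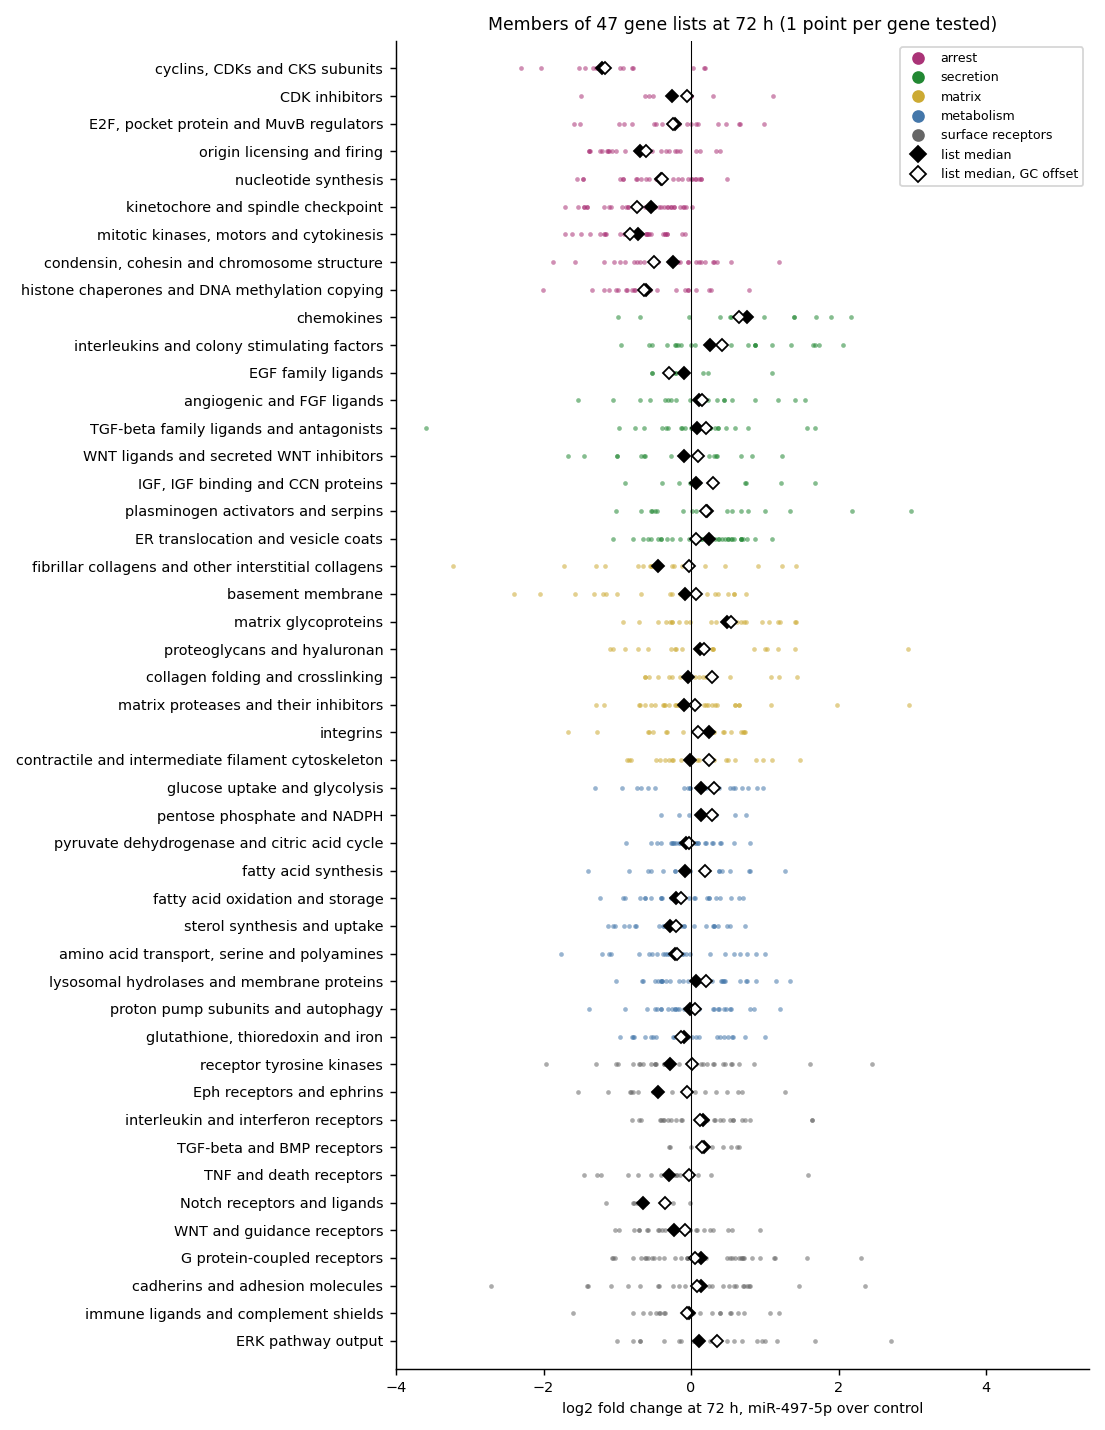
Log2 fold change at 72 h (miR-497-5p over control) of each tested member of the 47 gene lists, 1 coloured point per gene, with the list median as a filled diamond and the median in the fit with a GC content offset as an open one. The cell cycle lists lie to the left of 0 under both, cyclins and their kinases furthest at a median of -1.21, and chemokines and matrix glycoproteins lie to the right.

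Sugar metabolism rose in some steps and fell in others. Of 23 glucose uptake and glycolysis genes 12 rose and 5 fell. HK2, the hexokinase that traps glucose, was at 17.1, 17.6 and 18.4 CPM in control and 34.3, 35.4 and 35 CPM with miR-497-5p (log2 fold change 0.98 ± 0.067 (SE), adjusted p 2.2e-17), and SLC2A3, the high-affinity glucose transporter, at 11.7, 12.8 and 11.5 against 21.7, 24.1 and 21.1 CPM (0.89, adjusted p 1.1e-13). PGAM1, phosphoglycerate mutase, which has processed pseudogenes, was at 157, 152 and 162 against 63.6, 64.5 and 63.4 CPM (-1.30, adjusted p 3.4e-31), and SLC16A3, the lactate exporter MCT4, at 397, 408 and 416 against 223, 205 and 212 CPM (-0.93, adjusted p 2.2e-22; -0.49 with the offset). Of 9 pentose phosphate and NADPH genes 6 rose and 2 fell (7 and 1 with the GC offset), with IDH1 at 0.75 and ME1 at 0.59 (0.33 with the offset). The citric acid cycle list had 8 higher and 11 lower of 27 (9 and 9 with the offset); SUCLG2, a succinyl-CoA ligase chain, changed by 0.80 and PDK2, a kinase that turns pyruvate dehydrogenase off, by -0.89 (-0.51 with the offset).

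Sterol and amino acid genes were lower more often than higher. Of 26 sterol synthesis and uptake genes 16 fell and 6 rose, with a median of -0.28, and 14 fell and 3 rose with the GC offset. MVK, mevalonate kinase, was at 79.5, 81.9 and 79.6 against 36.6, 36.6 and 37.2 CPM (log2 fold change -1.13, adjusted p 4.7e-23). SREBF2, which switches these genes on, changed by -0.90 (-0.57 with the offset). Of 26 amino acid transport, serine and polyamine genes 16 fell and 7 rose. PHGDH and PSAT1, the opening steps of serine synthesis, were at 17.7, 16.8 and 16.6 and at 36.2, 36.2 and 36.8 CPM in control and at 7.77, 8.04 and 8.3 and at 15.7, 15.3 and 19.4 CPM with miR-497-5p, with log2 fold changes of -1.08 (adjusted p 5.9e-16) and -1.11 (adjusted p 1.7e-19). SLC38A2, a transporter of small neutral amino acids, was at 149, 151 and 140.2 against 286, 293 and 300.2 CPM (1, adjusted p 1.4e-26), and SLC7A11, the cystine carrier, changed by 0.88 (0.56 with the offset).

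Lipid and lysosomal genes were mixed. Of 17 fatty acid synthesis genes 6 rose and 7 fell (7 and 6 with the GC offset), and of 23 oxidation and storage genes 8 and 11. PNPLA2, the triglyceride lipase ATGL, was at 95.3, 99.1 and 95.8 against 43.3, 40.7 and 39.6 CPM (log2 fold change -1.23, adjusted p 2.8e-18; -0.77 with the offset), and ACSL4, which activates arachidonate, changed by 0.78 (0.48 with the offset). Of 33 lysosomal genes 15 rose and 10 fell, and LIPA, the acid lipase, was at 33.6, 34.5 and 32.4 against 81.5, 87.4 and 85.1 CPM (1.34, adjusted p 3.5e-28). ATP6V1A, the catalytic chain of the proton pump, was at 21, 20.2 and 19.4 against 47.2, 47.8 and 45.4 CPM (1.21, adjusted p 2.5e-21), while ATG9A, the autophagy scramblase, was at 50.0, 50.0 and 50.3 against 19.2, 20.6 and 18 CPM (-1.38, adjusted p 2.4e-24). The proton pump and autophagy list had 12 higher and 12 lower of 29 (13 and 10 with the offset). FTL, ferritin light chain, which has many processed pseudogenes, was at 11378, 11407 and 11225 against 23375, 22511 and 22487 CPM (1.01, adjusted p 4.8e-34), and MT2A, a metallothionein, at 1235, 1239 and 1238 against 759, 707 and 707 CPM (-0.77, adjusted p 1.4e-18).

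Surface receptors changed in both directions. Of 31 receptor tyrosine kinases 7 rose and 12 fell, with a median of -0.29 that became 0.01 with the GC offset. MET, the receptor of hepatocyte growth factor, was at 23.3, 26.4 and 24.4 CPM in control and 73.2, 80.1 and 72.8 CPM with miR-497-5p (log2 fold change 1.61 ± 0.057 (SE), adjusted p 1.3e-27). FGFR1, of the FGF receptors, was at 69.7, 65.9 and 67.6 against 41.3, 44.5 and 39.7 CPM (-0.70, adjusted p 8.8e-17), and DDR1, a collagen receptor, and PTK7, a WNT co-receptor, changed by -0.995 and -1.02, and by -0.58 and -0.67 with the GC offset. Of 19 Eph receptors and ephrins 4 rose and 6 fell (5 and 5 with the GC offset), with EPHB4 at -0.83 (-0.42 with the offset) and EPHA4 at 0.69.

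Of 27 interleukin and interferon receptors 12 rose and 5 fell (12 and 3 with the GC offset). IL7R, the interleukin-7 receptor chain, was at 23.9, 23.1 and 22.9 against 70.3, 74.3 and 72.8 CPM (log2 fold change 1.64, adjusted p 2.3e-28), and IL6ST, gp130, the shared chain of the interleukin-6 family, at 265, 259.5 and 248 against 436, 444 and 468 CPM (0.80, adjusted p 7.1e-17; 0.50 with the offset). Of 17 TNF and death receptors 10 fell and 1 rose, and 5 fell and 4 rose with the GC offset. TNFRSF1A, the main TNF receptor, was at 187, 182 and 189 against 83.1, 79.2 and 76.8 CPM (-1.22, adjusted p 5.1e-28), and FAS changed by -0.33 (-0.54 with the offset). Of 11 TGF-beta and BMP receptors 5 rose and 2 fell, with TGFBR1, the type I receptor, at 77.7, 82.8 and 72.8 against 118, 124 and 124 CPM (0.65, adjusted p 3.9e-16; 0.38 with the offset). None of 10 tested genes of a Notch list, which holds HEY1 beside receptors and ligands, rose and 5 fell. NOTCH1 was at 16.3, 16.1 and 17.5 against 8.59, 6.77 and 7.1 CPM (-1.15, adjusted p 7.3e-15). It stood at -0.70 with the offset. JAG1 changed by -0.77. Of 24 WNT and guidance receptors 12 fell and 5 rose; PLXNA1, a semaphorin receptor, changed by -0.98 (-0.55 with the offset) and its partner NRP1 by 0.94, at 29.9, 28 and 29.3 against 51.1, 58.1 and 57.8 CPM.

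Among 36 G protein-coupled receptors 11 rose and 9 fell. OXTR, the oxytocin receptor, was at 227, 220.3 and 226 against 470.2, 498 and 502 CPM (log2 fold change 1.13, adjusted p 1.5e-30). F2R and F2RL2, the thrombin receptors PAR1 and PAR3, were at 20.2, 21.4 and 21.7 and at 10.1, 11.3 and 9.36 CPM in control and at 46.5, 48.1 and 44.4 and at 29.8, 31.6 and 30.2 CPM with miR-497-5p (1.13, adjusted p 2.4e-19, and 1.57, adjusted p 7.4e-21). ADGRG1, an adhesion receptor, changed by -1.07. Of 28 cadherins and adhesion molecules 11 rose and 7 fell. CLDN1, claudin-1 of tight junctions, was at 8.99, 11.3 and 10.8 against 55.5, 52.7 and 51.2 CPM (2.36, adjusted p 1.6e-28), CDH6, cadherin-6, changed by 0.80 and NECTIN1 was at 31.1, 30.2 and 33.1 against 12, 11.8 and 11.9 CPM (-1.40, adjusted p 7.5e-19).

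Of 22 immune ligands and complement shields 8 rose and 9 fell. NT5E, CD73, which makes adenosine, was at 11.8, 13.2 and 11.2 against 27.3, 27 and 29 CPM (log2 fold change 1.20, adjusted p 1.7e-18), PDCD1LG2, PD-L2, at 4.64, 4.34 and 5.16 against 10.5, 8.46 and 10.5 CPM (1.06, adjusted p 5.3e-10), and CD46, a complement shield, changed by 0.63 (0.35 with the offset). HLA-C fell by 0.79 on the log2 scale and stood at -0.36 with the GC offset. Of 24 genes that report ERK signalling 10 rose and 5 fell, and 16 rose and 4 fell with the GC offset. The feedback inhibitor SPRY4 was at 7.9, 7.45 and 7.33 against 14.6, 14.4 and 15.2 CPM (0.96, adjusted p 3.6e-11) and the transcription factor ETV5 at 4.96, 4.3 and 4.99 against 10.8, 8.57 and 9.03 CPM (0.997, adjusted p 5.7e-11), while EPHA2 fell by 0.79 on the log2 scale and stood at -0.39 with the offset.

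**Figure D5:**
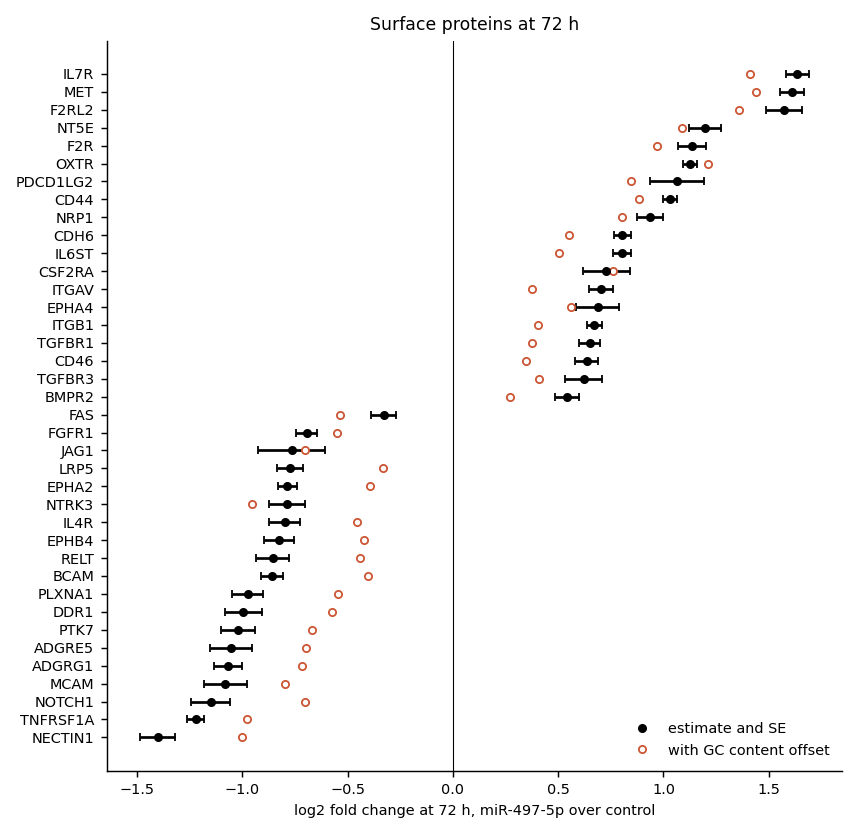
Log2 fold change at 72 h (miR-497-5p over control) of 38 surface proteins with its SE (black), and the estimate in the fit with a GC content offset (open circles), sorted by the first. IL7R, MET and F2RL2 lie furthest to the right and NECTIN1, TNFRSF1A and NOTCH1 furthest to the left, and no offset estimate crosses 0.

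The scaling also moved the counts of some lists. With library totals the counts higher and lower were 5 and 8 for angiogenic and FGF ligands, 6 and 7 for WNT ligands, 6 and 10 for collagen folding, 9 and 12 for contractile genes, 12 and 12 for lysosomal genes, 11 and 12 for the proton pump and 10 and 13 for G protein-coupled receptors, each a change in which direction held more members. They were 0 and 13 for cyclins and their kinases, 1 and 19 for nucleotide synthesis, 5 and 16 for condensin and cohesin, 1 and 19 for polymerases and chaperones, 10 and 8 for glycolysis, 5 and 15 for the citric acid cycle, 4 and 13 for fatty acid oxidation, 11 and 8 for interleukin receptors and 2 and 13 for WNT and guidance receptors, a count moved by over 1.5 times with the balance kept. Without control replicate 3, 5 condensin and cohesin genes and 1 EGF family ligand rose, and without miR-497-5p replicate 3, 5 condensin and cohesin genes.

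Many of these genes were not called at 12 h. The effect at 72 h was above that at 12 h for 3902 genes (22.5%) and below it for 4549 (26.2%), together 48.8% of those tested. Only 817 genes were called in the same direction at both times, 580 went from higher to lower and 318 from lower to higher. IL33 had a log2 fold change of 0.03 at 12 h (adjusted p 0.76) and the difference between the times was 1.70 ± 0.069 (SE) (adjusted p 2.1e-22). For FN1, MET and IL7R the values at 12 h were 0.03, -0.12 and -0.10, and the differences 1.14 (adjusted p 1.6e-12), 1.73 (2.7e-23) and 1.73 (1.1e-23). MET in the controls went from 60.0 to 24.7 CPM between the times and with miR-497-5p from 55.1 to 75.4 CPM, and ABI3BP from 44.9 to 12.2 CPM in control and from 42.2 to 47.8 CPM with miR-497-5p. In these genes the control level fell over time, while in IL33 the controls went from 50.0 to 79.2 CPM and miR-497-5p cells from 51.1 to 263 CPM. DOK5 fell over time in both arms, from 21.0 to 5.55 CPM in control and from 24.2 to 19.1 CPM with miR-497-5p. ANGPT1, ITGB1 and ETV5 also had lower means at 72 h than at 12 h in both arms. Both time effects share the 12 libraries of 1 fit.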

How the data were processed

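The values deposited by the authors are raw counts per Ensembl gene. Per the submitters' processing notes, the tools were Trimmomatic 0.36 for trimming, STAR 2.5.2b for alignment (GRCh38) and featureCounts of Subread 1.5.2 for counting; per the series' design text, unique reads in exons were counted. The strand setting and the annotation are not given in the sources used here. GENCODE 44 named 56410 of 57500 identifiers (98.1%). The 72 h libraries held 21561816 to 27595617 counts, which limits the precision of low genes.

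The 12 input libraries were fitted together in edgeR 4.0.16 (R 4.3.3; TMM scaling, filterByExpr, robust quasi-likelihood test, group means, no block), with Benjamini-Hochberg adjustment over all 17335 genes and calls under 0.05; CPM are TMM-scaled and errors are SE of the log2 fold change. The labels number the replicates but do not say that they were separate cultures, so p-values may measure technical spread. On simulated counts for 16776 genes the fit recovered 67 of 100 changes of 0.5 and 92 of 100 of 1 (log2), with 8 false calls among 16576 unchanged genes. The simulation changed few genes, equally up and down, with no trend in GC content. In the data 57.5% of genes were called, so these rates need not carry over. Same-numbered libraries of 72 h did not deviate together. Named genes are those the series names, the 15 largest changes each way (mean of at least 5 CPM, arms apart) and, in each of 47 lists, up to 5 called members with the largest change and 2 not called; a few genes and sites are not reported here. The members and lists were chosen with earlier results of these data known. Motifs and sites were searched in RefSeq promoters and GENCODE 3′ UTRs with Python 3.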

Additional observations from a re-analysis of the deposited data

Results flagged for a closer look

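Effects that differed between 12 and 72 h were flagged by the test of that difference in the 12-library edgeR fit: 3902 genes had an effect at 72 h above that at 12 h and 4549 below it. Of the genes named above, and of TGFBR3 and ADGRE5, some were called in opposite directions at the 2 times. TGFBR3, a TGF-beta receptor, changed by 0.62 at 72 h (0.41 with the GC offset). ADGRE5, an adhesion receptor, changed by -1.05 (-0.70 with the offset). HAS2 was lower at 12 h and higher at 72 h, with a difference of 1.36 on the log2 scale, as were SEC62 (1.24), ITGAV (0.94), TGFBR3 (0.87), ADAM10 (0.79) and ITGB1 (0.78). TUBA1B was higher at 12 h and lower at 72 h, with a difference of -2.37, as were DTYMK (-1.68), CKS2 (-1.58), PTTG1 (-1.52), ADGRE5 (-1.36), MT2A (-0.96), TAGLN2 (-0.96) and the marker KRT7 (-0.56). The largest adjusted p among these differences was 4.9e-08, for TGFBR3. Their effects at 12 h were small, from -0.25 to 0.31. Some of the 12 h calls were near the limit, with an adjusted p of 0.046 for TUBA1B, 0.045 for TGFBR3 and 0.0345 for ADAM10. The smallest was 8.8e-05, for KRT7. At 12 h TUBA1B was at 1740, 1751 and 1783 CPM in control and 2057, 1792 and 1817 CPM with miR-497-5p. DTYMK was at 236, 248 and 241 against 280, 250 and 260 CPM. Replicate 1 with miR-497-5p, highest in both, had a rho of 0.146 between GC content and deviation from the 12-library mean. The other 12 h libraries were at -0.0226 to -0.0903. That replicate also had the squamous marker sum of 1230.0 CPM, and its part in these calls was not tested. No values with the GC offset are given for these 12 h effects and differences.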

How the results depend on the processing

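The counts of genes called at 72 h stayed within 1.5 times under all alternatives tried. Genes higher were 4960 with DESeq2 size factors, 3808 with library totals, 4295 with no filter on low counts, 4098 at a mean of at least 5 CPM, 4715 in the DESeq2 Wald test, 5103 with only the 72 h libraries and 4824 with the GC content offset, against 4835; genes lower were 5003, 6137, 5179, 4022, 4776, 5313 and 4492, against 5128. Leaving out each 72 h library in turn gave 4342 to 4562 higher and 4794 to 4837 lower. For the difference between the times, leaving out each of 12 libraries gave 3593 to 3863 higher and 4243 to 4551 lower. With the replicate block the counts were 4820 and 5102; the numbers do not pair the 72 h libraries, whose same-numbered deviations correlated at -0.05, 0.01 and -0.02. The GC content offset was chosen after seeing the data. The genes named in the text, with some checked beside them, included 172 called at 72 h. Of these, 164 kept their direction and call under each of the 14 alternatives that gave them a value (5 have none at a mean of at least 5 CPM). COL6A2, COL1A1 and GATA4 lost their calls with the GC offset, KRT8 with library totals and LUM without miR-497-5p replicate 1, and VEGFA, KRT7 and MSLN turned to 0.065, 0.067 and 0.35 with the offset. VEGFA and MSLN also lost their calls without single libraries, and MSLN in the DESeq2 test and at a mean of at least 5 CPM. The named genes were chosen largely by the size of their change, so the 164 say little about genes in general. With the GC offset 52 of the 172 changed in size by over 1.5 times. Over all genes in both fits, 74 turned from higher to lower and 257 from lower to higher with it. CCND1, not called, stood at -0.075 with library totals (adjusted p 0.023) and at 0.13 with the GC offset (adjusted p 3.6e-06). Base composition moved with the direction of change at 72 h and was not tested as a source of it.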
